A study of Mus musculus with 23 samples.

Results

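Of 47643 gene identifiers measured in mammary tumors of mice, 10 genes of the blood vessel wall and of angiogenesis were taken by their symbols: Pecam1, Cdh5, Kdr, Flt1, Tek, Tie1, Esam, Mcam, Vegfa and Angpt2. Endothelial cells line the vessels and are held together by the adhesion molecules encoded by Pecam1 (CD31), Cdh5 (VE-cadherin) and Esam. They grow new vessels when the ligand encoded by Vegfa, released by hypoxic cells among others, activates the receptor encoded by Kdr (VEGFR2), while the receptor encoded by Flt1 (VEGFR1) binds the same ligand and acts largely as a decoy. The receptor encoded by Tek (Tie2), assisted by that of Tie1, keeps vessels quiet, and the ligand encoded by Angpt2, stored and released by endothelial cells, loosens them in most settings. Mcam (CD146) is an adhesion molecule found on endothelial cells, but also on pericytes, smooth muscle and several tumor cells, so the question asked here was whether Mcam moved with the other endothelial genes.

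All mice were female and carried the polyoma virus middle T oncogene (PyMT), which drives tumors of the mammary epithelium, on a C57BL/6 background, and every group was given weekly antibody injections over 5 weeks. In the neutralization experiment, PyMT WT mice received anti-IL-38, an antibody against the cytokine IL-38 (6 libraries), or an IgG isotype control (5 libraries), starting at a first tumor of 0.6 cm. In the γδ-TCR experiment, started at 13 weeks of age, PyMT WT mice received IgG (4 libraries), and PyMT IL-38 KO mice, a C57BL/6N knockout crossed to PyMT, received IgG (4 libraries) or anti-γδ-TCR (4 libraries), which blocks signaling by the γδ T-cell receptor. WT mice with anti-γδ-TCR were not analysed here, so the effect of the blockade can be read only in IL-38 KO tumors. Whole dissociated tumors were sequenced from the 3′ end of the transcripts, and the labels do not say whether libraries of a group came from separate mice, so p-values measure the spread between these libraries. In such bulk samples, fewer cells of a type and less RNA per cell cannot be told apart.

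Libraries held 6273049 to 15879164 reads on genes. The gene of IL-38, Il1f10, had 0 reads in all 23 libraries, so the knockout could not be checked on it. The 4 libraries of IL-38 KO with anti-γδ-TCR and IL-38 KO IgG replicate 4 stood apart from the other 18, with 6273049 to 8794202 reads against 10138353 to 15879164, and 1.31 to 1.98% against 0.0943 to 0.191% of reads on processed pseudogenes. This difference in the libraries and the γδ TCR blockade cannot be told apart, since all blocked tumors are among them. Isotype control replicate 5 stood apart in the angiogenesis genes themselves, with the highest Vegfa and Flt1 of the 19 tumors normalized together. It also had the lowest Cdh5, Kdr, Tek, Tie1, Esam and Mcam. Each of the 10 genes had reads in every library, and the lowest count was 5 reads, of Tek in isotype control replicate 5. Of 25 further endothelial markers, 24 also had reads in every library, with Sox18 the exception, so endothelial transcripts were detected in all tumors.

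Upstream sequences of 6 members were at hand, and 2 are given here to set Mcam, the gene in question, beside Tie1, a receptor largely restricted to endothelium. The sequences are the 250 bases before the start of the gene, 5′ to 3′ on the strand of the gene, from RefSeq on build GRCm38.p6, in which Mcam stands on the plus strand at chr9:44134408-44134657 and Tie1 on the minus strand at chr4:118489850-118490099. Capitals mark GGAAG, the core bound by ETS factors, which are prominent in endothelial genes, and GGGCGG, the GC box, both searched on both strands; no matches overlapped.
Mcam: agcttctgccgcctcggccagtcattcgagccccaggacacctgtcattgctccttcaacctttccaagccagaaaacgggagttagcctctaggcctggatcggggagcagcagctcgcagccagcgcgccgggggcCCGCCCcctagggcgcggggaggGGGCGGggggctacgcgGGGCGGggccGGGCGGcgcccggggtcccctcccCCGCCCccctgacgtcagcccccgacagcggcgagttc
Tie1: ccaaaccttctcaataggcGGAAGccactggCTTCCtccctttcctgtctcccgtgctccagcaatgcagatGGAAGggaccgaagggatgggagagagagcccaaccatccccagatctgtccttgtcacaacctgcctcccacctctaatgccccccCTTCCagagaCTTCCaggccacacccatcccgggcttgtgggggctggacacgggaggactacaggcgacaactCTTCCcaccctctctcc
The window of Mcam held 5 GC boxes and no GGAAG, whereas that of Tie1 held 6 GGAAG and no GC box. Both motifs occurred before other members, with 3 GGAAG and 3 GC boxes before Flt1, 1 and 2 before Kdr, 1 and 2 or 1 and 1 before the starts of Vegfa, and neither before Tek. As a background, 64.1% of 32817 promoter windows of this length held GGAAG and 32.7% held the GC box, and a match is a description of letters, not of binding.

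Across the 5 groups, the means of Mcam lay farther apart than those of the adhesion genes Pecam1, Cdh5 and Esam. Levels are given here as CPM, the reads of a gene relative to the reads of its library, scaled over all 23 libraries by the trimmed mean of M values (TMM), since the authors normalized their tables separately; they are compared between groups, not between genes. Mcam was highest in IL-38 KO with IgG, at 43.5 ± 11.3 CPM (SD, n = 4), followed by anti-IL-38 at 32.9 ± 9.80 (n = 6) and IL-38 KO with anti-γδ-TCR at 27.8 ± 5.71 (n = 4). The controls were lowest, with 19.2 ± 7.18 in WT IgG (n = 4) and 19.2 ± 7.28 in isotype control (n = 5). Every neighboring pair in this order overlapped in its values. By contrast, group means of Cdh5 lay between 12.96 and 16.7 CPM, those of Kdr between 34.4 and 42.1, and those of Pecam1 between 24.0 and 34.5, with overlapping values in all groups. Vegfa had its highest mean in isotype control, at 37.6 ± 27.2 CPM, a value carried by replicate 5 at 83.3, and its lowest in WT IgG at 13.96 ± 4.13. Angpt2 was highest in IL-38 KO with IgG, at 5.49 ± 1.88 CPM, against 2.98 ± 1.41 in anti-IL-38.

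**Figure D1:**
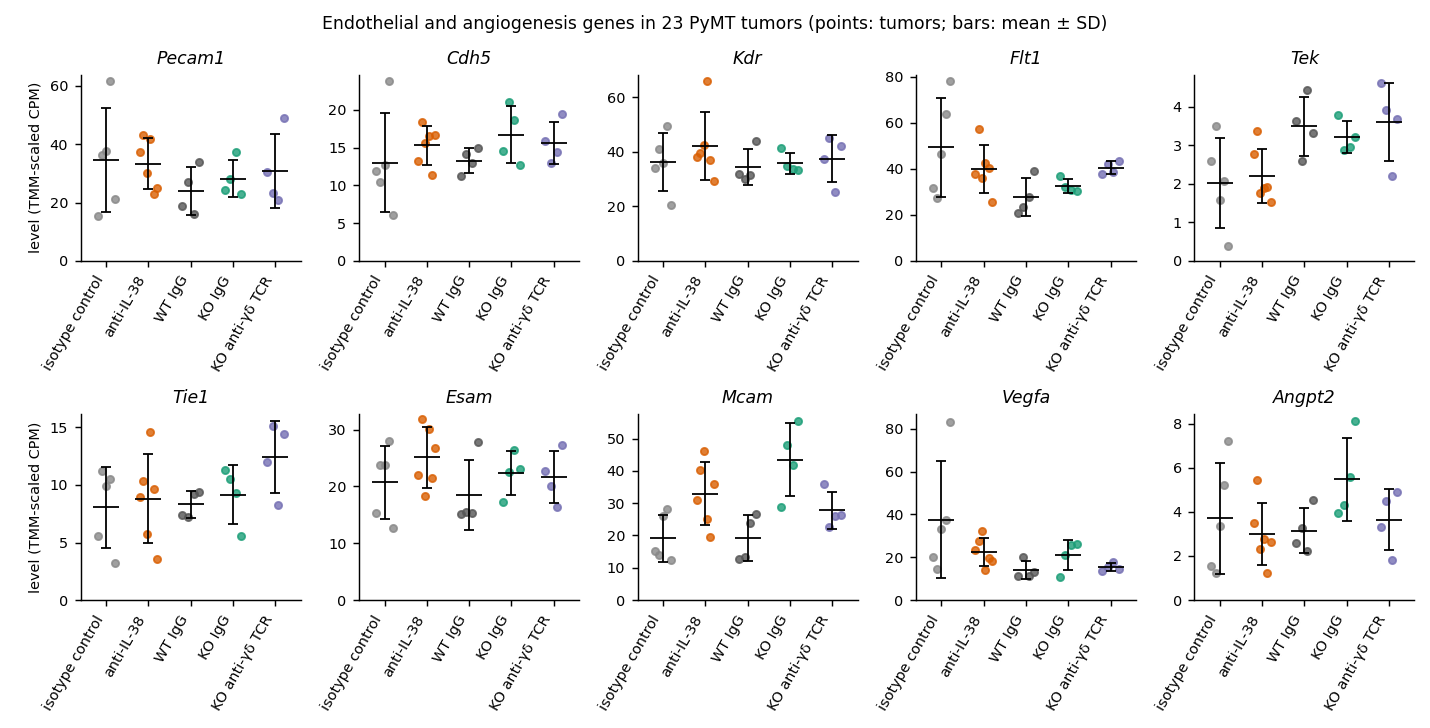
Levels of the 10 genes (vertical axis, TMM-scaled CPM from 0) in the 5 groups (horizontal axis), with 1 point per tumor and bars for mean ± SD. Mcam has higher means than both control groups in anti-IL-38 and in IL-38 KO with IgG, at 32.9 and 43.5 CPM against 19.2, while in Flt1 the blocked tumors, at 37.9 to 43.5 CPM, lie above the IL-38 KO IgG tumors, at 30.3 to 36.8; the highest Vegfa point, at 83.3 CPM, is isotype control replicate 5.

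Mcam had higher values where IL-38 was neutralized or knocked out, but did not pass the threshold of the main test. That test was limma on log2(normalized count + 1) over all genes, with an adjusted p (Benjamini-Hochberg) of 0.05. Normalized counts of Mcam in the 6 anti-IL-38 tumors were 243 at the lowest, 416 at the median and 576 at the highest, and in isotype control they were 193, 177, 324, 348 and 157. All 6 treated tumors lay above the median of the controls, and the groups overlapped. The log2 fold change was 0.79 (SE 0.26, limma adjusted p = 0.417). In WT IgG, Mcam was 158, 164, 298 and 336, and in IL-38 KO IgG it was 361, 600.5, 525.6 and 705. Here every KO tumor was above every WT tumor, by 1.23 on the log2 scale (SE 0.28, limma adjusted p = 0.210), an absence of overlap shared by 3.66% of 16563 genes in this direction. Over both experiments, 465 ± 143 (n = 10) stood against 240 ± 84.4 (n = 9), a log2 fold change of 0.97 (SE 0.21, limma adjusted p = 0.165), with 10 of 10 inhibited tumors above the control median and an unadjusted p of rank 10 among 16352 genes. This pooled fit had no term for the experiment. With such a term limma called 1 of 16352 genes, and Mcam was not called.

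Whether Mcam was called depended on the test. DESeq2 on the recovered reads called Mcam in the pooled comparison (log2 fold change 0.96, adjusted p = 0.00961) and in IL-38 KO against WT (1.21, adjusted p = 0.00903), where it called 0.428% and 1.8% of all genes. It did not call Mcam in the antibody experiment alone, and neither limma nor edgeR called it in any comparison; limma called 0% of all genes in the pooled and the antibody comparison, and 0.00604% in IL-38 KO against WT. The effect of the antibody on Mcam minus that of the knockout was -0.44 on the log2 scale (SE 0.42, limma adjusted p of the interaction = 0.807).

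Under γδ TCR blockade, Mcam was lower in the IL-38 KO tumors. In the table that holds both groups, normalized counts of Mcam were 271, 455, 406 and 552 with IgG and 357, 225, 259 and 261 with anti-γδ-TCR. All 4 blocked tumors lay below the median of the IgG tumors, and the groups overlapped through blocked replicate 1 and IgG replicate 1. The log2 fold change was -0.59 (SE 0.23, limma adjusted p = 0.168), with an unadjusted p of 0.0286, a level reached by 21.7% of 16481 genes, and limma called 0%. Without IL-38 KO IgG replicate 4, the fold change was -0.44 and limma called 2357 of 16480 genes, with 0 members among them. This comparison and that of IL-38 KO against WT share the 4 IL-38 KO IgG libraries, so the higher and the lower Mcam are not independent.

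Among all 10 members, none was called by limma or edgeR, and DESeq2 called Mcam alone, in the comparisons named above; DESeq2 called 0.469% of all genes in the antibody comparison, 6.25% under blockade and 0.0612% in the interaction, and edgeR 0.00612% in the pooled comparison. At an unadjusted limma p under 0.05, 1 member (Mcam) was higher and 0 were lower in the pooled comparison, against 6.42% and 4.13% of all genes. With the antibody 1 was higher (Mcam) and 0 lower, against 5.61% and 4.91%, and with the knockout 2 were higher (Mcam and Angpt2) and 0 lower, against 6.73% and 5.4%. Under blockade 1 was higher (Flt1) and 1 lower (Mcam), against 12.7% and 9%, and for the interaction there were 0 members, against 4.24% higher and 3.43% lower (7.67% in all). Fold changes were positive for 8 of 10 members in the pooled comparison, 7 with the antibody, 9 with the knockout, 5 under blockade and 4 in the interaction, against 50.6%, 50.2%, 50.6%, 51.9% and 52.3% of all genes. Groups did not overlap for 0 members with the antibody, where 0.4% of all genes were higher and 0.644% lower without overlap. The members and the gene lists used below were chosen with earlier results of these data known, so such counts are not a test.

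The adhesion genes Pecam1, Cdh5 and Esam were not called in any comparison, by limma, edgeR or DESeq2. Their log2 fold changes with the antibody and with the knockout were lower in value than those of Mcam. Cdh5 had log2 fold changes of 0.34 (SE 0.27) with anti-IL-38, 0.10 without isotype control replicate 5, and 0.33 (SE 0.20) with the knockout. Esam differed by 0.30 (SE 0.22) and 0.33 (SE 0.23), and over both experiments 10 of 10 tumors lay above the median of the 9 controls for Esam, although only 3 of 6 did within the antibody experiment. Pecam1 differed by 0.05 (SE 0.30) and 0.28 (SE 0.25), and with the antibody its sign turned with edgeR (-0.053), with DESeq2 (-0.051) and without single libraries (down to -0.19 without isotype control replicate 1). Without isotype control replicate 5, the antibody value of Esam was 0.13 and that of Pecam1 -0.079. Under γδ TCR blockade these genes lay close to 0, at 0.11 (SE 0.27) for Pecam1, -0.04 (SE 0.21) for Cdh5 and -0.02 (SE 0.20) for Esam. For Esam under blockade, the 95% confidence interval ran from -0.47 to 0.43, and for Mcam it ran from -1.10 to -0.07. With the mean of the 7 endothelial genes other than Mcam, Vegfa and Angpt2 as a term in the fit, an alternative added after the data were seen, the log2 fold change of Mcam was 0.86 in the pooled comparison, 0.71 with the antibody, 1.03 with the knockout and -0.56 under blockade, and limma did not call it (adjusted p = 0.326, 0.516, 0.592 and 0.239). In these fits limma called 1 of 16352, 0 of 16002, 1 of 16563 and, under blockade, 1308 of 16481 genes.

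**Figure D2:**
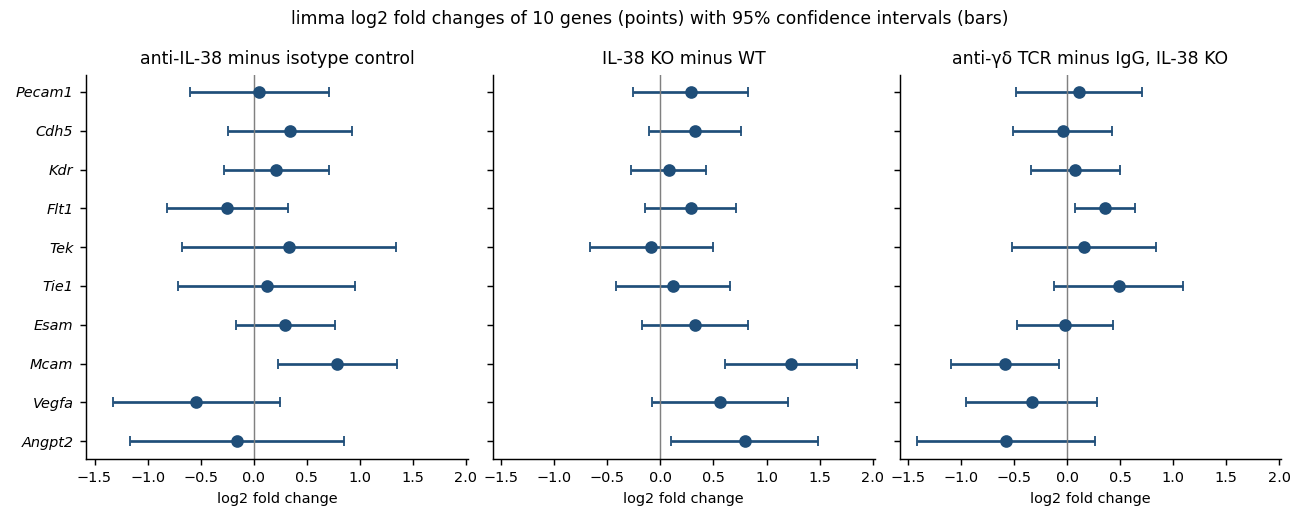
Log2 fold changes from limma (horizontal axis) of the 10 genes (vertical axis) with anti-IL-38, with the IL-38 knockout and with γδ TCR blockade; points are estimates and bars 95% confidence intervals. Mcam lies to the right in the first and second panel, at 0.79 and 1.23, and to the left in the third, at -0.59; of the other genes, only Angpt2 with the knockout (0.79) and Flt1 under blockade (0.35) have intervals that leave out 0.

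Among the receptors for VEGF, Flt1 lay higher in each blocked tumor than in any IgG tumor, and Kdr differed by less than its spread. Normalized counts of Flt1 were 348, 306, 298 and 301 in IL-38 KO with IgG and 375, 414, 384 and 429 with anti-γδ-TCR. The groups did not overlap, as for 4.57% of all genes in this direction, but the log2 fold change of 0.35 (SE 0.13) did not pass the limma threshold (adjusted p = 0.138). By the antibody Flt1 differed by -0.25 (SE 0.26), or -0.057 without isotype control replicate 5, and by the knockout by 0.28 (SE 0.20). Kdr differed by 0.21 (SE 0.23) with the antibody, or 0.025 without that tumor, 0.08 (SE 0.16) with the knockout and 0.08 (SE 0.19) under blockade.

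Vegfa pointed in different directions by antibody and by knockout, without passing a test. In isotype control its normalized counts were 258, 181, 412, 462 and 1044, and in the 6 anti-IL-38 tumors 173 at the lowest, 269 at the median and 404 at the highest. None of the 6 treated tumors was above the control median (log2 fold change -0.54, SE 0.37, limma adjusted p = 0.598), and without isotype control replicate 5 the fold change was -0.19. In WT IgG, Vegfa was 140, 248, 141 and 165, and in IL-38 KO IgG 138, 264, 323 and 330. KO tumors were higher in 3 of 4 cases against the WT median (0.56, SE 0.29, limma adjusted p = 0.454). Without IL-38 KO IgG replicate 4, whose library stood apart, the fold change was 0.43. For Vegfa, the antibody effect minus the knockout effect was -1.10 (SE 0.53, limma adjusted p = 0.652), in a test that called 0.00612% of 16352 genes.

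The hypoxia response, a program that includes Vegfa in most cells, was looked at through 10 genes chosen for it, and no gene of the list was called. With anti-IL-38, 3 of 10 genes had positive fold changes (median -0.38), and with the knockout 8 of 10 (median 0.15), against 50.2% and 50.6% of all genes. Isotype control replicate 5 was extreme here too, with Car9 at 61.1 CPM against 12.4 to 25.9 in the other isotype controls. Egln3, an oxygen sensor induced by hypoxia, was at 247 CPM in that tumor against 89.7 to 129 in the other isotype controls. Under blockade, 5 of 10 were positive, and Car9, the hypoxia-induced carbonic anhydrase IX, was lower without overlap, as for 4.98% of all genes, at 74.0 ± 9.90 normalized counts against 270.1 ± 189 (log2 fold change -1.60, SE 0.42, limma adjusted p = 0.0674). With the knockout Car9 differed by 1.45 (SE 0.47, limma adjusted p = 0.290). Bnip3, a mitophagy gene, differed by -0.62 with the antibody and by -0.53 with the knockout.

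Of 7 further genes of the VEGF system, none was called in any comparison. Vegfb, a ligand of Flt1, was lower in all KO tumors than in all WT tumors, as were 3.41% of all genes, at 428 ± 38.2 against 519.7 ± 10.3 normalized counts (-0.28, SE 0.13), and higher in all blocked tumors, at 429 ± 52.3 against 328 ± 28.5 (0.38, SE 0.14, limma adjusted p = 0.145). Pgf, the other ligand of Flt1, differed by 1.03 under blockade (SE 0.39, limma adjusted p = 0.155). Nrp2, a co-receptor mainly of lymphatic endothelium, was 1333 ± 234 with anti-IL-38 against 1783 ± 290 in isotype control (-0.42, SE 0.14, limma adjusted p = 0.420), and differed by -0.38 (SE 0.16) with the knockout. Nrp1, the co-receptor of Kdr, differed by -0.12 with the antibody, -0.18 with the knockout and -0.22 under blockade. Flt4, the receptor of lymphatic vessels, differed by 0.66 (SE 0.30) with the knockout, and the lymphangiogenic ligands Vegfc and Vegfd by -0.04 and 0.27.

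The angiopoietin ligand Angpt2 was higher with the knockout, though not past the threshold. Normalized counts of Angpt2 were 31.9, 40.5, 27.7 and 57.1 in WT IgG and 49.6, 54.0, 70.2 and 102.9 in IL-38 KO IgG. All KO tumors lay above the WT median, with overlap through WT replicate 4 (log2 fold change 0.79, SE 0.32, limma adjusted p = 0.357). The value of 102.9 was that of IL-38 KO IgG replicate 4, whose library stood apart, and without it the fold change was 0.59. With anti-IL-38, Angpt2 differed by -0.16 (SE 0.47), and under blockade by -0.58 (SE 0.38, limma adjusted p = 0.418). For Angpt2, the antibody effect minus the knockout effect was -0.95 (SE 0.64, limma adjusted p = 0.754).

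The receptors Tek and Tie1 were not called in any comparison. Tek differed by 0.33 (SE 0.47) with the antibody, where isotype control replicate 5 at 4.77 normalized counts stood against 19.6 to 44.1 in the other isotype controls, by -0.09 (SE 0.26) with the knockout and by 0.16 (SE 0.31) under blockade. Tie1 differed by 0.12 (SE 0.39), 0.12 (SE 0.24) and 0.48 (SE 0.28). Of 5 further genes of this system, Angpt4 was too low to be tested. The others were not called: Angpt1, the activating ligand of Tek, differed by 0.39 (SE 0.18, limma adjusted p = 0.245) under blockade, and Ptprb, the phosphatase that restrains Tek, by 0.48 (SE 0.23). Angptl4 and Svep1 differed by -0.55 (SE 0.32) and -0.08 (SE 0.27) with the knockout.

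Other endothelial markers had median log2 fold changes of 0.10 to 0.20 with the antibody, the knockout and the blockade, against 0.002 to 0.022 over all genes. The marker with the smallest p in the knockout comparison, Vwf, was lower rather than higher. Of 24 endothelial markers tested, 20 had positive fold changes with the antibody (median 0.17), 14 with the knockout (median 0.10) and 16 under blockade (median 0.20). Positive fold changes were found for 50.2%, 50.6% and 51.9% of all genes. None of the markers was called by limma. At an unadjusted limma p under 0.05, 1 was higher with the antibody and 1 lower with the knockout, against 5.61% and 5.4% of all genes. Under blockade 2 were higher and 1 lower, against 12.7% and 9%. Vwf, the von Willebrand factor of mature endothelium, was 124 ± 28.2 in IL-38 KO IgG against 206 ± 41.8 in WT IgG (-0.73, SE 0.23, limma adjusted p = 0.276). The groups did not overlap for Vwf, as for 3.41% of all genes in this direction. Podxl, found on endothelium and on some epithelia, was 509 ± 149 against 325 ± 112 with the antibody (0.67, SE 0.26, limma adjusted p = 0.432). In isotype control replicate 5 Podxl was 13.7 CPM, against 22.4 to 37.6 in the other isotype controls. Robo4, an endothelial guidance receptor, differed by 0.69 under blockade (SE 0.26, limma adjusted p = 0.150). Of 6 lymphatic markers tested, 4 were higher with the knockout, 5 with the antibody and 3 under blockade, and Ccl21a had 0 reads in all libraries; Prox1, the master regulator of lymphatic endothelium, differed by 0.51 (SE 0.23) over both experiments.

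Genes of a list chosen for tip cells, the leading endothelial cells of a sprout, had positive fold changes with the knockout in all 10 cases, although none was called by limma. With the antibody 7 of 10 were positive and under blockade 6 of 10. The median log2 fold change with the knockout was 0.59, where 50.6% of all genes were above 0, and 5 of 10 had an unadjusted p under 0.05 in this direction, against 6.73% of all genes. The list was chosen with earlier results of these data known, so these counts are a description and not a test. Which cells of the whole tumors these transcripts came from was not determined. Nid2, a basement membrane protein, was 140 ± 47.6 in IL-38 KO IgG against 47.8 ± 8.58 in WT IgG (1.48, SE 0.27, limma adjusted p = 0.156). The groups did not overlap for Nid2, as for 3.66% of all genes in this direction. Pdgfb, the endothelial factor that recruits pericytes, differed by 1.13 (SE 0.34, limma adjusted p = 0.272), and Dll4, the Notch ligand of tip cells, by 0.58 (SE 0.33). Under blockade, Nid2 differed by -0.76 (SE 0.30) and Pdgfb by -1.003 (SE 0.36, limma adjusted p = 0.132), while Kcne3 differed by 0.97 (SE 0.32, limma adjusted p = 0.110). Apln, the apelin ligand of sprouting vessels, differed by -1.46 with the antibody (SE 0.51, limma adjusted p = 0.421) and by 0.79 with the knockout (SE 0.25). The difference between these effects on Apln was -2.24 (SE 0.68, limma adjusted p = 0.540).

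Over the 19 tumors of the 4 groups normalized together, the coefficient of Mcam was positive with all 9 other members, as with 53.1% of all genes, and among the members only the correlation with Cdh5 passed the threshold. Correlations were tested by permutation for each of 16351 genes and adjusted over all of them, and 5.58% of the genes passed. For Cdh5, Pearson's r was 0.65 (permutation p = 0.00152, adjusted p = 0.0346) and Spearman's rho 0.69 (permutation p = 0.00151, adjusted p = 0.0544). Leaving out the 2 tumors farthest from the Mcam median, isotype control replicate 5 and WT IgG replicate 1, gave r = 0.54 (permutation adjusted p = 0.178). Within the 11 tumors of the neutralization experiment r was 0.75, within the 8 of the genotype comparison 0.59, and 0.58 after the group means were removed (permutation adjusted p = 0.140, 0.438 and 0.225). Without isotype control replicate 5 alone, r was 0.59 and no longer passed (permutation adjusted p = 0.105). The call was also lost without isotype control replicate 1 or 2, anti-IL-38 replicate 2 or 5, or IL-38 KO IgG replicate 2 or 3, with r from 0.61 to 0.65 and permutation adjusted p from 0.0521 to 0.076 (Cdh5).

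Coefficients of the other members were lower and did not pass the threshold. Esam had r = 0.57 (permutation p = 0.0118, adjusted p = 0.105) and rho = 0.49 (permutation p = 0.0346, adjusted p = 0.225), 0.39 without the 2 tumors, and 0.54 and 0.73 within the experiments. Pecam1, the usual marker of vessel content, had r = 0.33 (permutation p = 0.163, adjusted p = 0.438) and rho = 0.37 (permutation p = 0.116, adjusted p = 0.400), 0.18 without the 2 tumors, and 0.44 and 0.38 within the experiments. For Angpt2 r was 0.44 (permutation p = 0.0604, adjusted p = 0.258) and rho 0.44 (permutation p = 0.0635, adjusted p = 0.301); r was 0.68 without the 2 tumors, and 0.22 and 0.78 within the experiments. Coefficients were lower for Kdr (r = 0.27, rho = 0.25), Tek (0.22, 0.04), Tie1 (0.12, 0.08), Vegfa (0.09, 0.28) and Flt1 (0.07, 0.06), with permutation p from 0.245 to 0.889 and adjusted p from 0.563 to 0.964. Within the experiments some of these differed: Flt1 had r = -0.11 over the 11 tumors of the neutralization experiment and 0.67 over the 8 of the genotype comparison, and Vegfa -0.11 and 0.58. Kdr had 0.35 and 0.32, Tek 0.30 and -0.062, and Tie1 0.11 and 0.12; the differences between the experiments were not tested. The median r of Mcam with the 7 endothelial genes was 0.27, and that of the 21 pairs among these 7 was 0.47, from -0.59 for Flt1 with Tek to 0.76 for Pecam1 with Esam. After group means were removed these medians were 0.23 and 0.52, and without isotype control replicate 5 they were 0.29 and 0.48. The difference between them was not tested. Gene by gene, the median r of each of the 7 with the others ran from 0.06 for Flt1 and 0.30 for Tek to 0.58 for Kdr. Without isotype control replicate 5 it ran from -0.25 for Tek to 0.59 for Pecam1. Single pairs depended on that tumor: without it, Cdh5 with Kdr was 0.28, Kdr with Esam 0.49 and Flt1 with Tek -0.29.

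**Figure D3:**
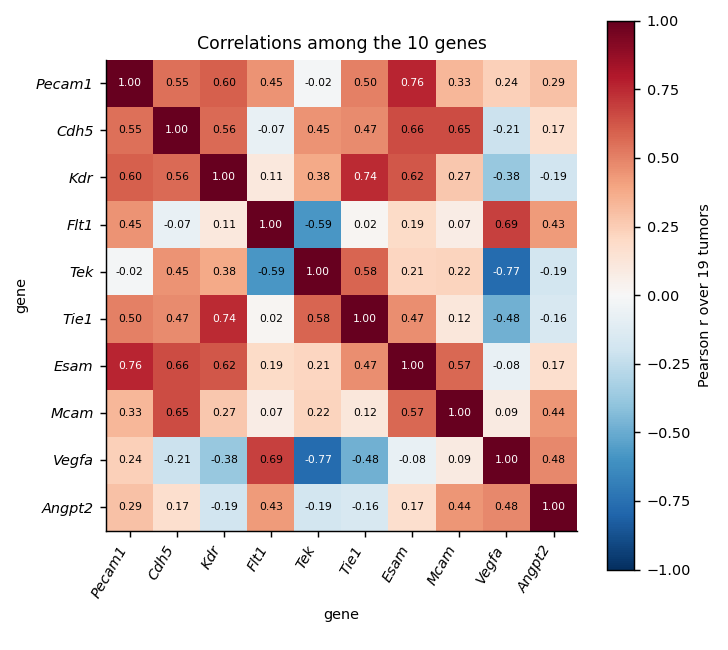
Pearson r over 19 tumors between each pair of the 10 genes (rows and columns; color from -1 in blue to 1 in red, with the value printed). Pecam1, Cdh5, Kdr and Esam form a block of positive values, from 0.55 to 0.76 (0.28 to 0.77 without isotype control replicate 5); the row of Mcam is paler except at Cdh5 (0.65) and Esam (0.57), and Vegfa is negative with Tek (-0.77).

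**Figure D4:**
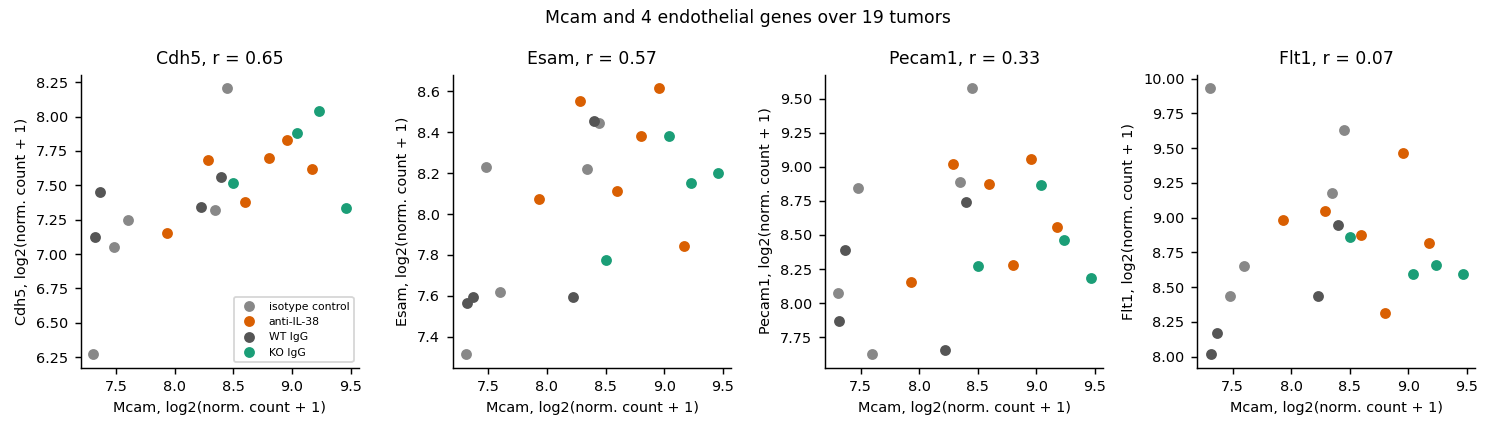
Cdh5, Esam, Pecam1 and Flt1 (vertical axes) against Mcam (horizontal axes), as log2(normalized count + 1) in 19 tumors, with 1 point per tumor colored by group. The points rise with Mcam for Cdh5 (r = 0.65) and Esam (0.57), with isotype control replicate 5 at the lower left, and less so for Pecam1 (0.33) and Flt1 (0.07).

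Beyond the members, Mcam passed the threshold with 2 of 10 tip cell genes, 1 of 9 epithelial and 1 of 14 mural genes, and, with negative sign, with 5 of 8 macrophage genes. Nid2 had r = 0.80 (permutation p = 7e-05, adjusted p = 0.0129; rho = 0.80, p = 0.0001, adjusted p = 0.0224), with r = 0.82 without the 2 tumors and 0.69 and 0.89 within the experiments. Dll4 had r = 0.75 (permutation p = 0.00031, adjusted p = 0.0180; rho = 0.78, p = 0.00014, adjusted p = 0.0236), with 0.68 without the 2 tumors and 0.75 and 0.78 within the experiments. Among 24 endothelial markers 20 were positive, with a median r of 0.27, and none passed. Epcam, an adhesion molecule of epithelial cells, had r = 0.66 (permutation p = 0.00107, adjusted p = 0.0305; rho = 0.64, p = 0.00378, adjusted p = 0.0782), with 0.58 without the 2 tumors and 0.70 and 0.76 within the experiments. The mural cell list, markers of pericytes and smooth muscle, had a median of 0.27, with Pdgfrb, the pericyte receptor for PDGF-B, past the threshold at r = 0.62 (permutation p = 0.00271, adjusted p = 0.0491; rho = 0.60, p = 0.00801, adjusted p = 0.110), 0.57 without the 2 tumors and 0.72 and 0.67 within the experiments. Of the 14 mural genes, 9 were positive. The contractile genes Acta2, Tagln, Myh11 and Cnn1 were negative, at r = -0.18, -0.21, -0.04 and -0.10. In the same order they were -0.70, -0.84, -0.43 and -0.63 in the genotype comparison, and -0.02, 0.01, 0.01 and 0.02 in the neutralization experiment. All 8 macrophage markers were negative (median -0.61), and 5 passed, such as Mrc1, the mannose receptor, at r = -0.68 (permutation p = 0.00132, adjusted p = 0.0331; rho = -0.63, p = 0.00442, adjusted p = 0.0837), with -0.73 without the 2 tumors and -0.77 and -0.63 within the experiments. IL-38 KO IgG replicate 4, whose library stood apart, had the highest Mcam of the 19 tumors, at 55.5 CPM. It also had the lowest Mrc1 and Cd68, another macrophage marker, at 62.4 and 41.8 CPM. Coefficients of macrophage markers without that tumor alone were not computed, and the neutralization experiment does not include it. The permutations did not take the groups into account, so differences between group means enter these coefficients. After the group means were removed, r was 0.61 for Nid2, 0.59 for Dll4, 0.59 for Epcam, 0.52 for Pdgfrb and -0.50 for Mrc1. Median r was 0.45 for fibroblast, 0.30 for epithelial, 0.35 for tip cell, 0.29 for skeletal muscle, 0.26 for lymphatic, 0.06 for hypoxia, -0.07 for basal, -0.13 for adipocyte, -0.03 for VEGF and 0.11 for angiopoietin genes, against 0.03 over all genes.

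**Figure D5:**
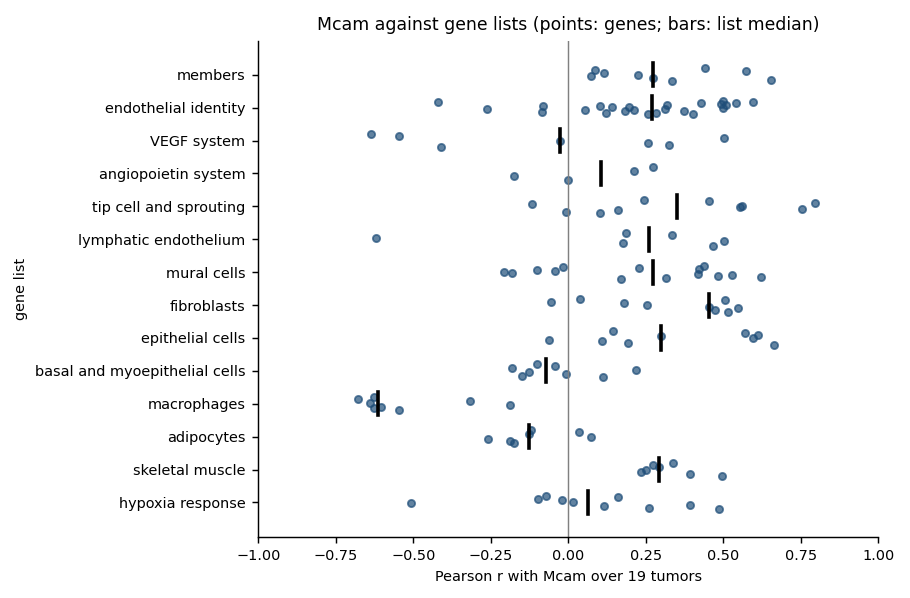
Pearson r with Mcam over 19 tumors (horizontal axis) for the genes of each list (vertical axis), with 1 point per gene and a black bar at the median. The macrophage markers lie at the left with a median of -0.61; the tip cell list reaches 0.80 with Nid2, and the members other than Mcam lie between 0.07 and 0.65.

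By likeness over the 19 tumors, the 5 genes nearest to Mcam were Spint2 (r = 0.88), Sgpp1 (0.87), Celsr1 (0.87), Atl2 (0.87) and Icmt (0.85). None is an endothelial marker. Spint2 encodes a protease inhibitor of epithelial cells and Celsr1 a planar polarity cadherin. After the group means were removed, r of these genes with Mcam was 0.71, 0.74, 0.77, 0.72 and 0.84, in the order given. Those nearest to Pecam1 were Dnajb3 (0.86), Gja4 (0.80), the connexin of arterial endothelium, Gpx7 (0.78), Bcam (0.77) and Lbx1 (0.77), of which Dnajb3 and Lbx1 had mean normalized counts of only 7.07 and 13.3.

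Values of markers of other cells are given beside those of Mcam; no gene of these lists was called by limma, and their part in the result was not tested. All macrophage, epithelial and mural markers had reads in every library. All 8 macrophage markers had negative fold changes with the knockout (median -0.57) and 6 of 8 with the antibody (median -0.21), with 0 called. Their summed level was 2030 to 2795 CPM in anti-IL-38, 2471 to 3342 in isotype control, 835 to 2102 in IL-38 KO IgG, 1867 to 2574 in WT IgG, and 769 to 1074 under blockade, where 7 of 8 were lower and Cd68, a lysosomal protein of macrophages, was 292 ± 87.3 against 1494 ± 785 normalized counts (-2.16, SE 0.46, limma adjusted p = 0.0657). Cd68 was 20.9 to 41.7 CPM in the blocked tumors. In IL-38 KO IgG replicate 4, whose library stood with the blocked ones, it was 41.8 CPM, against 167 to 237 in the other IL-38 KO IgG tumors. That tumor also had the highest Mcam, at 55.5 CPM. The drop of Cd68 under blockade and the difference in the libraries cannot be told apart. All 9 epithelial markers were higher with the antibody (median 0.70), 5 with the knockout (median 0.11) and 8 under blockade (median 0.17), with sums of 2446 to 4521 CPM in anti-IL-38 1589 to 3483 in isotype control, 2926 to 3271 in IL-38 KO IgG and 2196 to 3100 in WT IgG. With anti-γδ-TCR the epithelial sums were 3357 to 3694 CPM. All blocked tumors are among the libraries that stood apart, and a link of these sums with Mcam was not tested. The claudin gene Cldn4 was 1425 ± 590 in IL-38 KO IgG against 642 ± 104 in WT IgG (1.08, SE 0.24, limma adjusted p = 0.210). The groups did not overlap for Cldn4, as for 3.66% of all genes in this direction. Of 14 mural markers, 12 were higher with the antibody (median 0.67), 7 with the knockout (median 0.052) and 11 under blockade (median 0.62), and Pdgfrb was 159 ± 33.0 with anti-IL-38 against 101 ± 35.5 in isotype control (0.71, SE 0.27, limma adjusted p = 0.425). In isotype control replicate 5 Pdgfrb was 3.73 CPM, against 6.65 to 10.5 in the other isotype controls. Summed mural levels were 210 to 2015 CPM in anti-IL-38, 162 to 471 in isotype control, 288 to 442 in IL-38 KO IgG, 400.3 to 784 in WT IgG and 321 to 711 with anti-γδ-TCR.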

How the data were processed

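Tumor RNA was sequenced by a 3′ method (QuantSeq) in 23 libraries, single reads of 75 cycles. The authors deposited signal in the form of normalized counts, reads per gene divided by 1 size factor per library, in separate tables of 19 and 8 libraries; the 4 libraries of IL-38 KO with IgG stand in both, with identical reads. The submitters' processing notes name STAR, HTSeq, DESeq2 and build GRCm39, and the study's methods name the BlueBee QuantSeq pipeline. Values divided by what 1 read is worth in a library gave whole reads in 100% of cases (tolerance 0.0001%); in WT IgG replicate 1 the step was too near 1 to tell recovered from rounded reads. A count of 0 allows up to 3 counts, 0.189 to 0.478 CPM; reads are not independent molecules, so this covers counting error only. Symbols were found for 47224 of 47643 identifiers, and all 131 genes of the 10 members and 13 further lists matched.

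The main test was limma 3.58.1 (R 4.3.3, trended variance, two-sided) on log2(normalized count + 1), for genes whose normalized count averaged 5 or more, each comparison on its own libraries, and the difference of antibody and knockout effects as an interaction over 19 libraries; adding 1 understates the changes of low genes. Permutation tests of correlations used 100000 resamples, and 10000 in the alternatives. Alternatives were edgeR 4.0.16 and DESeq2 1.42.0 on the reads, other pseudocounts, filters and scalings, a replicate block, a term for the experiment, and omission of single libraries; the endothelial mean as a term and leaving out 2 libraries together were added after seeing the data. The fits were tested on simulated data. Same-numbered libraries did not deviate together (correlations from -0.17 to 0.07), so numbers were not taken as pairs. No libraries of a group were duplicates (chi-square per degree of freedom from 17.1 to 138 over 43 pairs). The members and lists were chosen with earlier results of these data known. Named genes are the members, the VEGF and angiopoietin systems, in each comparison the 2 genes of lowest p from every other list, and the 5 genes most like Mcam and Pecam1. Ccl21a, Sox18, Epcam, Mrc1, Tagln, Myh11 and further values of named genes in other comparisons were given after values were seen.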

Additional observations from a re-analysis of the deposited data

Results flagged for a closer look

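In 50 groups of values (10 genes in 5 groups of tumors), 4 held 1 tumor farther from the rest than Dixon's 95% limit, where chance gives about 1 in 20 such groups. Kdr was 820.0 normalized counts in anti-IL-38 replicate 4, against 362 to 534 in the other 5 tumors. In WT IgG replicate 4, Kdr was 554 against 372 to 395 in the others, and Esam was 349.5 against 188 to 192. Kdr was 520.1 in IL-38 KO IgG replicate 1, against 421 to 434. All 4 values were high for their group. Leaving out WT IgG replicate 4 gave a log2 fold change of 0.54 for Esam in IL-38 KO against WT and of 0.21 for Kdr, and neither was called.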

How the results depend on the processing

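The number of members called was 0 under every alternative in the antibody, blockade and interaction comparisons, and 1 (Mcam) with DESeq2 in the pooled comparison and in IL-38 KO against WT, where the replicate block also gave 0. Mcam kept its direction under all alternatives: 0.83 to 1.06 pooled, 0.66 to 0.94 with the antibody, 1.03 to 1.42 with the knockout and -0.78 to -0.44 under blockade. DESeq2 gave 0.96 and 1.21 in the comparisons where it called Mcam. The correlation of Mcam with Pecam1 ran from 0.18 to 0.44 and was never called; that with Cdh5 ran from 0.54 to 0.75, with adjusted p from 0.0193 to 0.438. The replicate block gave 0 called members in each of the 5 comparisons, and turned Flt1 in the pooled comparison to 0.054 and Cdh5 in the interaction to -0.011.

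Only differences that were not called changed sign, and the cause was not tested. In the pooled comparison, Tek was -0.040 with edgeR and -0.034 with DESeq2; without isotype control replicate 5 and KO IgG replicate 4 together, Flt1 was 0.16, Tek -0.22 and Vegfa 0.16; with the endothelial mean as a term, Vegfa was 0.068. With the antibody, Pecam1 was -0.053 with edgeR and -0.051 with DESeq2. Under blockade, Tek was -0.035 with quantile normalization. In the interaction, Cdh5 was -0.057 and Tie1 -0.020 with quantile normalization, -0.11 and -0.031 with edgeR, and -0.12 and -0.045 with DESeq2. For the correlation with Mcam, Flt1 was -0.11 and Vegfa -0.11 within the neutralization experiment (0.67 and 0.58 within the genotype comparison), Tek -0.062 within the genotype comparison, and Kdr -0.014, Tek -0.028 and Tie1 -0.18 without the 2 tumors farthest from the Mcam median.

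Leaving out 1 library at a time gave these ranges where a sign changed. Pooled: Flt1 -0.10 to 0.14, Tek -0.18 to 0.24, Tie1 -0.042 to 0.25, Vegfa -0.16 to 0.20. Antibody: Pecam1 -0.19 to 0.30, Tek -0.15 to 0.59, Tie1 -0.17 to 0.35, Angpt2 -0.46 to 0.15. Knockout: Tek -0.22 to 0.036. Blockade: Pecam1 -0.14 to 0.27, Cdh5 -0.15 to 0.068, Kdr -0.022 to 0.25, Esam -0.15 to 0.10. Interaction: Pecam1 -0.47 to 0.014, Cdh5 -0.22 to 0.26, Kdr -0.055 to 0.26, Tek -0.060 to 0.68, Tie1 -0.29 to 0.24, Esam -0.24 to 0.092. Correlation with Mcam: Flt1 -0.082 to 0.35, Tek -0.12 to 0.32, Tie1 -0.12 to 0.23, Vegfa -0.027 to 0.47. Without KO IgG replicate 4, limma called 2357 genes in the blockade comparison, none of them a member. Depth limits Tek, with 5 to 62 reads a library, and Angpt2, with 10 to 95.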

Other observations

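Skeletal muscle genes had higher and adipocyte genes lower values in the IL-38 KO than in the WT tumors, and no gene of these lists was called by limma (with unadjusted p under 0.05, 2 muscle genes were higher and 3 adipocyte genes lower). All 7 skeletal muscle genes were higher with the knockout (median log2 fold change 2.10) and under γδ TCR blockade (median 1.06), and their summed level ran from 13.2 to 402 CPM within the 4 IL-38 KO IgG tumors alone. Ckm, the muscle creatine kinase, was 87.9 ± 72.2 normalized counts against 9.37 ± 12.5 (3.46, SE 0.98, limma adjusted p = 0.255). All 7 adipocyte genes were lower with the knockout (median -1.06), with Cidec, a lipid droplet protein, at 51.7 ± 26.1 against 139 ± 55.5 (-1.48, SE 0.48, limma adjusted p = 0.290).

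Contractile genes shared by myoepithelium and smooth muscle had lower values with the knockout. Acta2 was 2008 ± 427 in IL-38 KO IgG against 4181 ± 1539 in WT IgG (-1.01, SE 0.26, limma adjusted p = 0.210). The groups did not overlap for Acta2, as for 3.41% of all genes in this direction. Cnn1 differed by -1.24 (SE 0.33, limma adjusted p = 0.232). Of 8 basal and myoepithelial genes, 7 were lower with the knockout (median -0.39), and 8 of 8 were higher under blockade (median 0.62). Among 9 fibroblast genes, 8 were higher with the antibody (median 0.47), 6 with the knockout (median 0.10) and 6 under blockade (median 0.22), and Thy1 was 381 ± 126 against 232 ± 98.8 with the antibody (0.83, SE 0.34, limma adjusted p = 0.441). In isotype control replicate 5 Thy1 was 5.55 CPM, against 17.4 to 26.4 in the other isotype controls.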
